A study of Homo sapiens with 72 samples.

Results

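The long non-coding RNA (lncRNA) genes of MDA-MB-231 cells were compared after 8 h with TGF-β and after 8 h with SB431542 (SB). A gene was included when it had at least 0.5 TPM (transcript share per length of the gene, scaled to one total) in 3 or more of the 24 MDA-MB-231 libraries, and 16552 of the 96411 lncRNA genes listed met that rule. MDA-MB-231 is an established human line of triple-negative breast cancer. The cells had been kept overnight in serum-free medium before the agents were added. The TGF-β group of 3 libraries received the ligand at 5 ng/mL for 8 h. The SB group of 3 libraries received the inhibitor at 10 µM for 8 h. Ligand buffer and DMSO are the vehicles named in the labels, and neither 8 h group is a vehicle-only control, so each difference sets stimulated cells against inhibited cells. The series has 3 lines (MDA-MB-231, MCF10A-M1 or M1, and MCF10A-M2 or M2), both agents and 4 times (0, 2, 8 and 24 h), each with 3 replicates and 72 libraries in all. The 0 h TGF-β libraries are from non-stimulated cells, and the earliest SB libraries are 0 h by title but 0.5 h by treatment label. The triplicates are biological according to the design text, and if they came from one culture a p-value covers no more than the variation among these libraries.

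TGF-β binds a type II receptor that activates a type I receptor kinase, and this kinase phosphorylates SMAD2 and SMAD3, which join SMAD4 and enter the nucleus to change transcription. SB431542 blocks the type I receptor kinases ALK5, ALK4 and ALK7 and so also stops signalling by TGF-β that the cells make themselves. LncRNAs are transcripts without a long open reading frame, often present at low levels, and some act in the chromatin or transcription of nearby genes. In breast cancer cells TGF-β is known for promoting migration and invasion. MCF10A-M1 is a non-malignant breast epithelial line and MCF10A-M2 is its derivative carrying activated HRAS.

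The depth of the libraries is unknown because TPM keeps no count of reads. Of the tested genes, 7082 reached 0.5 TPM in all 24 libraries, and 907 reached it in exactly 3, with a median of 0.218 TPM over all libraries. The 1339 genes just outside the rule, with 2 such libraries, had a median of 0.172 TPM. A gene of the 8 h comparison could need its 8 h libraries to meet the rule. This held for 613 genes, which reached 0.5 TPM in fewer than 3 of the other libraries, and 1 of these passed the test.

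SB replicate 3 stood apart from the other 8 h libraries. Genes of at least 0.5 TPM numbered 11772, 10744 and 12055 in the TGF-β libraries, against 11091, 11042 and 13376 in the SB libraries. The most abundant gene took 36.7%, 34.9% and 34.6% of all TPM in the TGF-β libraries, and 38.9%, 39.6% and 31.6% in the SB libraries. SB replicate 3 therefore had the most genes over the threshold and the smallest share in that one gene, while the groups overlapped in both measures. A two-sided exact permutation test between the groups gave p = 0.8 for both measures, where 0.1 is the smallest p that 3 against 3 allows. SB replicate 3 was also the highest SB library for 69.9% of all tested genes, for 71.2% of the 111 genes called higher with TGF-β and for 83.3% of 42 called lower. The counts of called genes, by level, by presence and shared with other lines, are also given without it. Of the counts shared with other times, only that of the lower genes at 24 h is given without this library.

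At 8 h, 155 of the 16552 lncRNA genes (0.936%) differed between TGF-β and SB at an adjusted p under 0.05 (limma on log2(TPM + 0.5), Benjamini-Hochberg over all genes tested). Such genes are termed called, and 111 were higher with TGF-β (0.671%) and 44 were lower (0.266%). The median difference, TGF-β minus SB on the log2(TPM + 0.5) scale, was 1.49 over the higher genes and -1.34 over the lower genes, against -0.06 over all genes tested. Differences of at least 1 were seen for 99 higher and 38 lower genes, and of at least 2 for 30 higher and 3 lower genes. The higher genes had a median of 6.02 TPM with TGF-β and 1.47 TPM with SB, and the lower genes 3.71 TPM with TGF-β and 9.84 TPM with SB. The 3 TGF-β libraries all lay above the 3 SB libraries for each of the 111 higher genes, and for 958 of the genes tested (5.79%). They all lay below for 43 of the 44 lower genes, and for 1168 of the genes tested (7.06%). The log2(TPM + 0.5) scale understates the change of genes with low values, and in RNA from bulk cultures a change in fewer cells and a change in the RNA per cell cannot be told apart.

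The split between directions depended on the scaling. After the libraries were rescaled by the median of ratios, 338 genes were called (2.04%), 211 higher (1.27%) and 127 lower (0.767%), so that the share of higher genes was 62.4%, against 71.6% as deposited, and it was 60.8% after quantile normalization. All 111 higher genes (0.671% of those tested) and 43 of the 44 lower genes (0.26%) were called under both scalings as deposited and rescaled, and 42 of these lower genes also had no overlap between the groups. The counts also depended on single libraries. Without SB replicate 3 there were 117 higher and 22 lower genes, of which 94 and 21 were among the genes called with all libraries, and with that library left out and the rest rescaled there were 157 and 89. The total fell to 86 when SB replicate 1 was left out and to 98 when SB replicate 2 was. Leaving out the TGF-β replicates one at a time, in their order, gave 103, 110 and 91 calls. These 5 fits had 61 to 89 higher and 21 to 37 lower genes.

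NONHSAG032124.2 rose most. Its levels were 135, 145 and 164 TPM in the TGF-β libraries, against 1.80, 1.73 and 3.17 TPM in the SB libraries. Every TGF-β library lay far above every SB library, and the means were 148 ± 15.1 TPM with TGF-β and 2.23 ± 0.81 TPM with SB (SD, n = 3 each). The log2 difference was 5.80 (SE 0.30, 95% confidence interval 5.18 to 6.42, limma adjusted p = 1.04e-11). Since NONCODE identifiers of this kind carry no symbol in the sources used here, neither a function nor a genome position is given for this or any other gene.

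NONHSAG082069.1 was second among the higher genes. It had 18.0, 13.8 and 22.7 TPM in the TGF-β libraries, against 1.05, 0.122 and 0.780 TPM in the SB libraries. The groups did not overlap, although the SB values spread widely for their size. Its means were 18.2 ± 4.44 TPM with TGF-β and 0.65 ± 0.48 TPM with SB (SD, n = 3 each), and its log2 difference was 4.10 (SE 0.30, 95% confidence interval 3.46 to 4.73, limma adjusted p = 8.10e-09).

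The next 8 higher genes, ranked by the size of the log2 difference, had differences between 3.67 and 2.68. Ranks 3 to 8 had means under 1 TPM with SB. The third-ranked gene had 13.9, 15.5 and 14.7 TPM in the TGF-β libraries and 0.357, 0.705 and 1.15 TPM in the SB libraries. The fourth had 3.34, 5.28 and 3.57 TPM with TGF-β and 0.0014, 0.0819 and 0.017 TPM with SB. Each TGF-β library of these genes exceeded the highest SB library. Ranks 9 and 10 were different in kind, being abundant in both groups. The ninth had 780, 741 and 821 TPM in the TGF-β libraries and 104, 105 and 150 TPM in the SB libraries, a log2 difference of 2.72 (SE 0.18, limma adjusted p = 1.17e-09). The tenth had 220, 206 and 237 TPM with TGF-β and 35.0, 32.6 and 34.3 TPM with SB, a log2 difference of 2.68 (SE 0.20, limma adjusted p = 8.10e-09). In neither did any library of one group come near the other group.

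The fifth to seventh higher genes varied more among their TGF-β libraries. The fifth had 1.32, 6.13 and 4.79 TPM with TGF-β and 0.0596, 0.0237 and 0.0697 TPM with SB. In the sixth and seventh the TGF-β replicate 2 was the low one, at 5.85 and 4.83 TPM, while replicate 1 had 13.9 and 11.2 TPM. Even these low TGF-β values exceeded every SB value of their gene, the highest of which were 1.42 TPM for the sixth and 0.994 TPM for the seventh. All of the first 10 higher genes kept their call when any one of the 6 libraries was left out.

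The lower genes changed by less. NONHSAG032247.3 fell most, with 4.86, 6.29 and 4.15 TPM in the TGF-β libraries against 22.9, 20.3 and 33.2 TPM in the SB libraries. The highest TGF-β value was far under the lowest SB value. The means were 5.10 ± 1.09 TPM with TGF-β and 25.5 ± 6.80 TPM with SB (SD, n = 3 each), a log2 difference of -2.20 (SE 0.23, 95% confidence interval -2.67 to -1.73, limma adjusted p = 1.38e-06). NONHSAG082120.1 was second, with 3.52, 2.09 and 4.14 TPM in the TGF-β libraries and 17.5, 16.3 and 12.8 TPM in the SB libraries. Its groups did not overlap either, and SB replicate 3 was here the lowest SB library. The means were 3.25 ± 1.05 TPM with TGF-β and 15.5 ± 2.43 TPM with SB (SD, n = 3 each), a log2 difference of -2.13 (SE 0.27, 95% confidence interval -2.68 to -1.57, limma adjusted p = 3.29e-05).

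**Figure D1:**
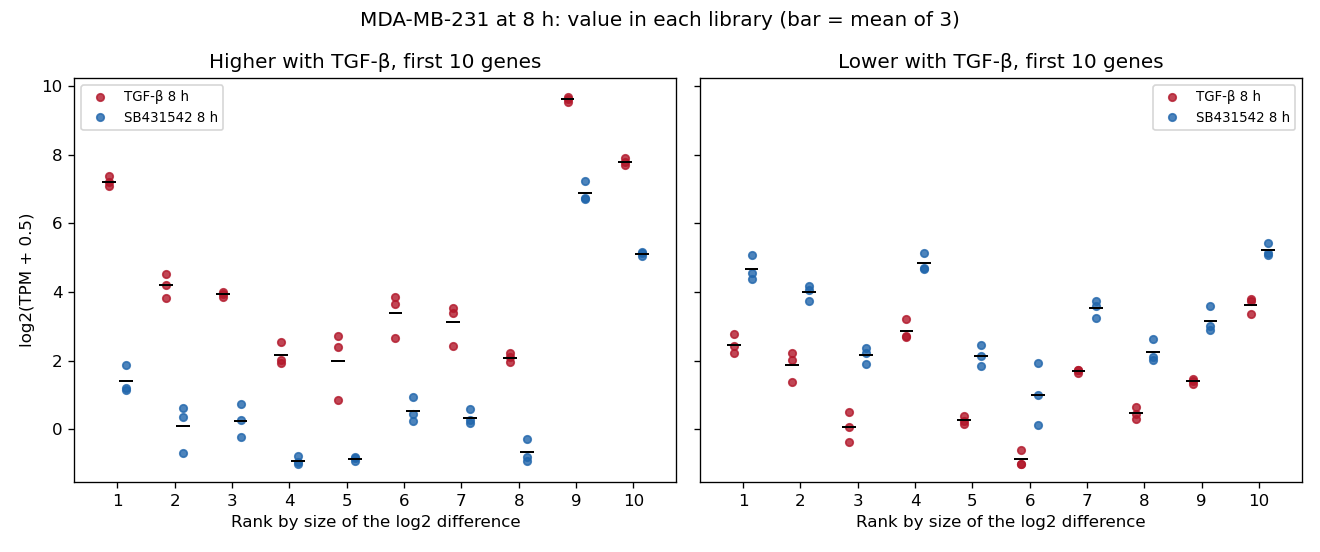
Level of the first 10 higher and first 10 lower lncRNA genes in each MDA-MB-231 library at 8 h, as log2(TPM + 0.5), with TGF-β to the left of SB431542 at each rank and a bar at the mean of 3 libraries. Only genes whose groups did not overlap were ranked. The higher genes of ranks 9 and 10 stand at a much higher level than those of ranks 3 to 8.

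Lower genes at ranks 3 to 10 had log2 differences between -2.10 and -1.59. The fourth had 6.08, 5.96 and 8.79 TPM in the TGF-β libraries and 24.9, 25.5 and 34.4 TPM in the SB libraries. The seventh was the most even with TGF-β, at 2.81, 2.81 and 2.60 TPM, against 11.7, 8.93 and 12.7 TPM with SB. The tenth was the most abundant of them, with 12.7, 9.74 and 13.4 TPM with TGF-β and 34.7, 33.2 and 42.3 TPM with SB. In these 3 genes the gap between the groups was wider than the spread within either. The fifth and sixth were the least certain of the 10: with all libraries their limma adjusted p-values were 0.0404 and 0.0351, and without one library they reached up to 0.178 and 0.247. The fifth kept its call in 0 of the 6 fits that left out one library and the sixth in 1, and the other 8 kept theirs in all 6. For the sixth, TGF-β replicates 2 and 3 are listed at 0 and replicate 1 has 0.157 TPM, against 1.49, 0.591 and 3.29 TPM with SB.

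The share of genes called rose with the level for the higher direction. Among the 7546 genes with a mean under 1 TPM over the 24 libraries, 29 were called higher (0.384%) and 3 lower (0.0398%). Among the 6029 genes of 1 to 10 TPM, 49 were higher (0.813%) and 22 lower (0.365%). Among the 2534 genes of 10 to 100 TPM, 24 were higher (0.947%) and 18 lower (0.710%). Of the 443 genes at 100 TPM or more, 9 were higher (2.03%) and 1 was lower (0.226%). The median standard error also fell along these classes, being 0.34, 0.32, 0.24 and 0.18 on the log2 scale in that order. Without SB replicate 3 the higher genes in these classes numbered 23, 50, 33 and 11, and the lower genes 1, 7, 13 and 1.

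The 10 called genes at 100 TPM or more have the highest mean levels among the called genes, and were looked at after their values were seen. The most abundant, 55th among the higher genes by size, had 800, 808 and 798 TPM in the TGF-β libraries and 248, 253 and 353 TPM in the SB libraries. The next, 33rd by size, had 619, 630 and 682 TPM with TGF-β and 165, 159 and 210 TPM with SB. Both had non-overlapping groups with little spread among the TGF-β libraries, and log2 differences of 1.51 (SE 0.15) and 1.86 (SE 0.16). The 1 lower gene of this class had 169, 146 and 148 TPM with TGF-β and 245, 231 and 272 TPM with SB. Its log2 difference of -0.69 (SE 0.13, limma adjusted p = 0.00629) was the smallest of all lower genes called.

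**Figure D2:**
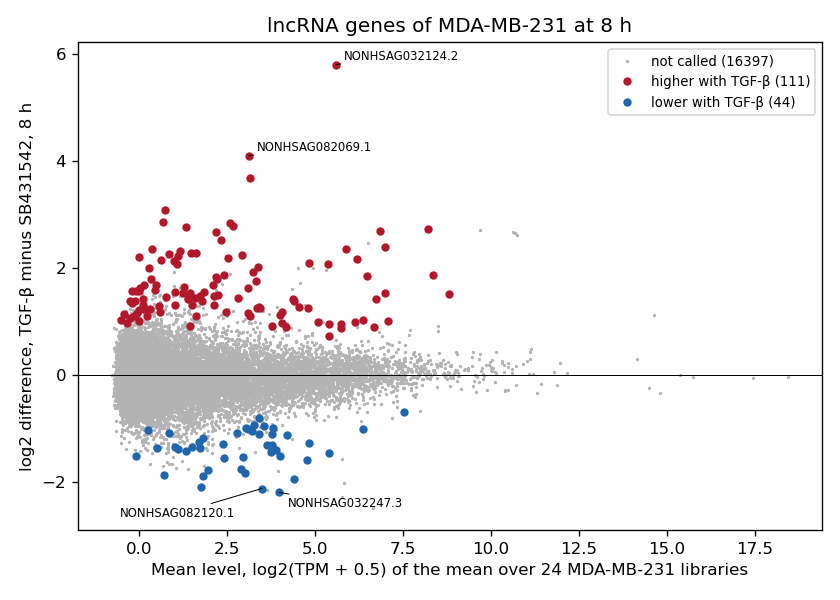
Log2 difference at 8 h, TGF-β minus SB431542, of each of the 16552 lncRNA genes in MDA-MB-231 against its mean level over the 24 libraries on a log2(TPM + 0.5) axis, with genes called higher and lower coloured and the 4 named genes labelled. The called higher genes reach 5.80 and extend to higher mean levels than the called lower genes, which end at -2.20.

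None of the 10 most abundant lncRNA genes, which together held 74.3 ± 1.93% of all TPM in the TGF-β libraries and 75.6 ± 5.28% in the SB libraries (SD, n = 3 each), was called (limma adjusted p between 0.455 and 0.998). Their values are tied to all others, since TPM was scaled over the lncRNA genes alone. The sixth of them had 27383, 42515 and 38178 TPM in the TGF-β libraries and 32709, 12331 and 10577 TPM in the SB libraries. Its groups overlapped, and its log2 difference had a standard error of 1.88.

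Presence in one group alone was rare. Only 10 genes were listed at 0 in all 3 SB libraries and at 0.5 TPM or more in all 3 TGF-β libraries, with values of 0.500 to 3.79 TPM there, and 9 of them were called. In the opposite sense there was 1 gene, listed at 0 with TGF-β and at 0.690 to 1.15 TPM with SB, and it was called. Without SB replicate 3 there were 13 such genes in the first sense, 7 of them called, and 1 in the opposite sense, which was not called. A further 29 tested genes were listed at 0 in all 6 libraries.

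A large difference alone was not enough. There were 10 genes with a log2 difference of 2 or more in either direction that were not called, 6 higher and 4 lower in their means, and they were looked at after their values were seen. The 4 most abundant had identifiers with consecutive numbers and moved together. One of them had 24.9, 2158 and 2370 TPM in the TGF-β libraries and 20.2, 8.51 and 2517 TPM in the SB libraries. Its high state thus occurred in TGF-β replicates 2 and 3 and in SB replicate 3, so the groups overlapped fully and the limma adjusted p was 0.857. The same gene ranged between 10.8 and 901 TPM among the SB libraries at 2 h, and between 11.3 and 651 TPM among the non-stimulated libraries. All 4 of the genes with lower means had at most 1 TPM in one TGF-β library and over 7 TPM in the other two.

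Some called genes had identifier numbers close to each other, which is given as a description with no test. Of the 220 genes tested whose number was within 5 of a called higher gene, 12 were themselves called higher (5.45%, against 0.671% of all genes tested). Of the 85 within 5 of a called lower gene, 6 were called lower (7.06%, against 0.266%). The first and the 38th higher genes were 2 numbers apart, and the first and the 15th lower genes 1 apart. Whether such numbers are neighbours in the genome was not tested, and without a stated strand setting reads from overlapping genes cannot be told apart.

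The comparison of the agents at the other times asked whether the 8 h genes already differed at 2 h and still differed at 24 h. At 0 h, where the TGF-β arm had not been stimulated, no gene was called (0 of 16552, 0%, limma; 839 genes had an unadjusted p under 0.05), and the 111 higher and 44 lower genes had median log2 differences of -0.07 and -0.13, against -0.13 over all genes. The 2 h and 24 h differences are taken from other libraries than the 8 h ones. All times were fitted together over the 24 libraries, however, so each gene has the same estimate of its spread at every time. Calls shared between times are therefore not independent repeats.

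Of the 111 higher genes, 109 had the same sign at 2 h (98.2%, against 35.0% of all genes tested) and 43 were called higher there (38.7% of the 8 h genes and 53.1% of the 81 genes called higher at 2 h, which were 0.489% of those tested). At 24 h, 107 had the same sign (96.4%, against 20.8% of all genes) and 63 were called higher (56.8% of the 8 h genes and 58.9% of the 107 called at 24 h, which were 0.646% of those tested). After rescaling, 111 of these higher genes had the same sign at 2 h, against 48.3% of all genes, and 110 at 24 h, against 48.4%. As deposited, their median log2 difference was 0.89 at 2 h and 1.03 at 24 h, against -0.15 and -0.33 over all genes. Thus most of the higher genes leaned the same way at both times, and 35 were called higher at 2, 8 and 24 h.

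The lower genes were mostly absent from the 2 h calls. Of the 44, 37 had the same sign at 2 h (84.1%, against 64.8% of all genes tested, and 30 against 51.5% of all genes after rescaling) and 5 were called lower (11.4% of the 8 h genes and 4.63% of the 108 called lower at 2 h, which were 0.652% of those tested). At 24 h all 44 had the same sign, as did 79.1% of all genes as deposited and 51.5% after rescaling, and 36 were called lower (81.8% of the 8 h genes and 5.82% of the 619 called lower at 24 h, which were 3.74% of those tested). Their median log2 difference was -0.38 at 2 h and -1.42 at 24 h as deposited, and -0.21 and -0.99 after rescaling. The pattern of 8 and 24 h without 2 h was held by 31 of the 44 lower genes and by 28 of the 111 higher ones, while 8 lower and 40 higher genes were called at 8 h alone. A gene without a call at a time missed the threshold there, which does not show that it did not differ. The share of all genes with each pattern of calls over the times was not computed. No 8 h gene was called in the opposite direction at 2 h or 24 h. With the calls at all times taken after median-of-ratios scaling, 103 higher genes were shared with 2 h and 143 with 24 h, and 12 and 56 lower ones. Leaving out one 8 h library gave between 32 and 46 higher genes shared with 2 h and between 50 and 65 shared with 24 h. The 36 lower genes shared with 24 h became 21 without SB replicate 1, SB replicate 3 or TGF-β replicate 1, and 20 without TGF-β replicate 2, and the 5 shared with 2 h became 3 without SB replicate 1, SB replicate 2 or TGF-β replicate 1.

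**Figure D3:**
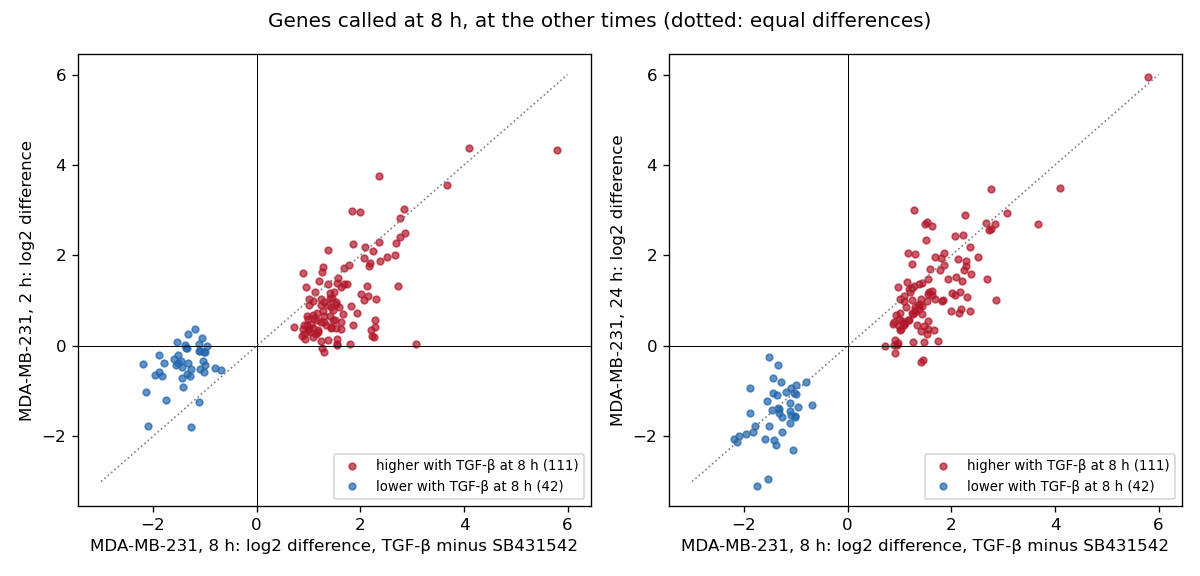
Log2 difference, TGF-β minus SB431542, of 111 higher and 42 lower lncRNA genes, called under both scalings without overlap, in MDA-MB-231 at 8 h (horizontal) against the same difference at 2 h and at 24 h (vertical), with a dotted line where both are equal. Most higher genes stay above 0 at both times, and most lower genes lie closer to 0 at 2 h than at 24 h.

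Few single genes could be shown to differ between 8 h and 2 h. The test of the difference between the 8 h and 2 h contrasts called 9 genes (0.0544%, 4 with a more positive difference at 8 h, 0.0242%, and 5 with a more negative one, 0.0302%, limma), and 6 of these were among the 8 h genes. The 8 h genes were chosen from libraries that also enter this test. The ninth-ranked higher gene was one of the 6. It averaged 335 TPM with TGF-β and 133 TPM with SB at 2 h, and 780 TPM with TGF-β and 120 TPM with SB at 8 h. The fourth-ranked higher gene had 0.602 TPM with TGF-β and 0.588 TPM with SB at 2 h, and 4.06 TPM with TGF-β and 0.0334 TPM with SB at 8 h. The 14th-ranked one, which is outside the first 10 and was picked from its values, went the other way: it averaged 275 TPM with TGF-β and 19.8 TPM with SB at 2 h, and 56.3 TPM with TGF-β and 10.6 TPM with SB at 8 h. These calls were fragile. The count was 9 without the 2 h SB replicate 1, 6 without the 8 h SB replicate 3, 3 without the 2 h TGF-β replicate 1 or the 8 h TGF-β replicate 2, and 0 without any one of the other 8 libraries. Between 8 h and 24 h no gene was called (0 of 16552, limma; 1488 with an unadjusted p under 0.05, and 2 calls after rescaling, 0.0121%), and that does not show that both times were alike.

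The named genes followed these courses. NONHSAG032124.2 averaged 103 ± 21.9 TPM with TGF-β and 4.70 ± 1.57 TPM with SB at 2 h, and 112 ± 17.7 TPM with TGF-β and 1.34 ± 0.38 TPM with SB at 24 h (SD, n = 3 each). NONHSAG082069.1 had its highest mean at 2 h, at 28.3 ± 5.66 TPM with TGF-β and 0.89 ± 0.24 TPM with SB, and had 13.4 ± 3.10 TPM with TGF-β and 0.74 ± 0.31 TPM with SB at 24 h. Both were therefore called at each time with an agent. NONHSAG032247.3 had 14.3 TPM with TGF-β and 19.2 TPM with SB at 2 h (log2 difference -0.40, limma adjusted p = 0.432) and 4.07 and 18.1 TPM at 24 h (-2.06, limma adjusted p = 3.21e-06). Its difference was more negative at 8 h than at 2 h by -1.79 (limma adjusted p = 0.0330), a call kept in 2 of 12 fits that left out one library, those without the 2 h SB replicate 1 or the 8 h TGF-β replicate 2. NONHSAG082120.1 had 7.09 TPM with TGF-β and 14.7 TPM with SB at 2 h (log2 difference -1.03, limma adjusted p = 0.0578) and 3.39 and 15.3 TPM at 24 h (-2.11, limma adjusted p = 2.73e-05).

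**Figure D4:**
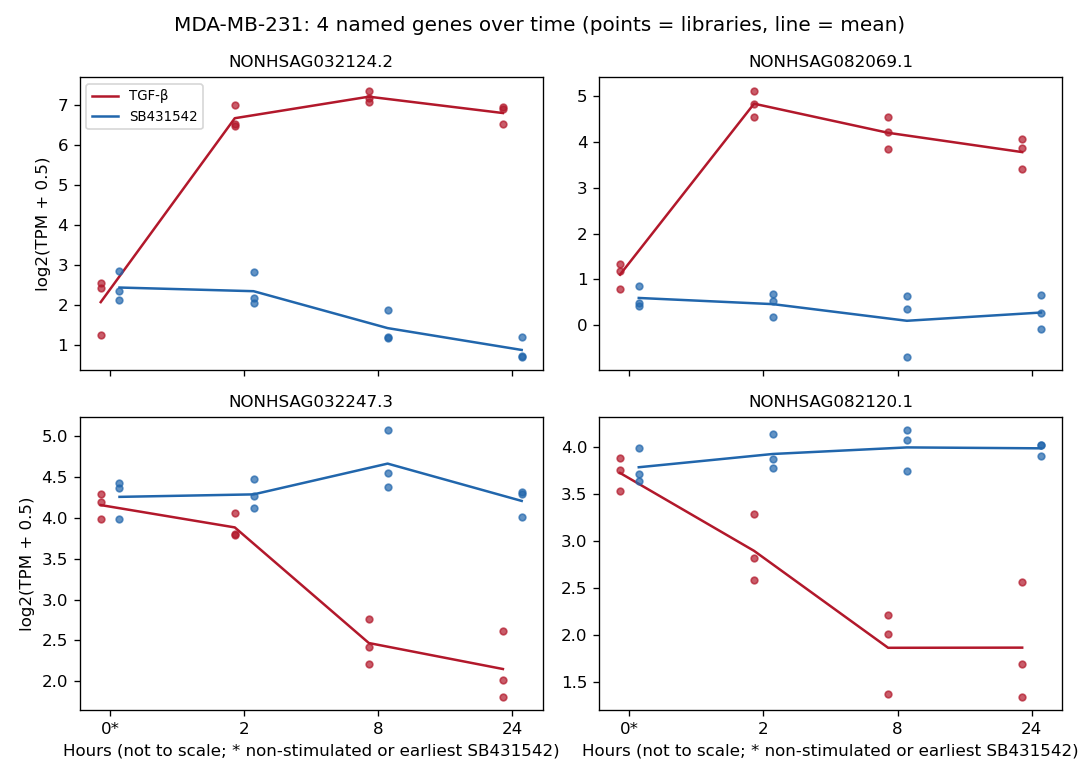
Levels of the 4 named lncRNA genes in MDA-MB-231 as log2(TPM + 0.5) at 0, 2, 8 and 24 h, with a point for each of 3 libraries and a line through the means of the TGF-β and the SB431542 arm. The 2 higher genes have parted by 2 h and the 2 lower genes are farther apart at 8 and 24 h than at 2 h.

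Each arm was also set against its own start, in contrasts that share the 8 h libraries with the comparison above and are given only side by side. In the TGF-β arm 211 genes differed between 8 h and the non-stimulated cells (1.27%), and in the SB arm 40 differed between 8 h and the earliest SB samples (0.242%). For the higher genes the median log2 difference was 1.23 in the TGF-β arm and -0.33 in the SB arm, against -0.17 and -0.26 over all genes. For the lower genes it was -1.02 in the TGF-β arm and 0.13 in the SB arm. After rescaling these medians were 1.42 and -0.16 for the higher genes, and -0.84 and 0.42 for the lower genes.

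Single genes show how the arms can differ. NONHSAG032124.2 stood at 148 TPM after 8 h of TGF-β and at 1.85 to 5.36 TPM in the 3 libraries of non-stimulated cells, a log2 difference of 5.15 (limma adjusted p = 1.43e-10). In the SB arm it stood at 2.23 TPM after 8 h and at 5.00 ± 1.44 TPM at the start, a log2 difference of -1.02 (limma adjusted p = 0.141). NONHSAG082069.1 had log2 differences of 3.09 in the TGF-β arm and -0.50 in the SB arm, the second with a limma adjusted p of 0.431. For NONHSAG032247.3 they were -1.69 in the TGF-β arm and 0.41 in the SB arm (limma adjusted p = 0.0001 and 0.386), and for NONHSAG082120.1 they were -1.86 and 0.21 (limma adjusted p = 0.000253 and 0.717). All 4 thus passed the test in the TGF-β arm alone, and the difference between the arms' own changes was not tested. The 37th-ranked lower gene, picked from its values, had the reverse: 63.8 TPM after 8 h of TGF-β and 59.5 TPM in non-stimulated cells, with a log2 difference of 0.10 (limma adjusted p = 0.852). In the SB arm it had 132 TPM after 8 h and 59.2 TPM at the start, with a log2 difference of 1.13 (limma adjusted p = 0.0129).

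The same 8 h comparison in the M1 and M2 lines shares no library with the MDA-MB-231 one. In M1, 1130 genes were called higher with TGF-β (5.41% of 20899 tested) and 604 lower (2.89%). In M2, 1024 were called higher (6.04% of 16958 tested) and 150 lower (0.885%). The median log2 difference over all genes was 0.04 in M1 and 0.23 in M2, and changes there are read against these.

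Many of the higher genes of MDA-MB-231 were also higher in the other lines. Of the 89 tested in M1, 61 were called higher (68.5%, against 5.41% of all genes tested in M1). The 61 were 7.47% of the 817 higher M1 genes tested in both lines, and the 89 had a median log2 difference of 1.36. Of the 86 tested in M2, 57 were called higher (66.3%, against 6.04% of all genes tested in M2). The 57 were 7.45% of 765 such M2 genes, and the 86 had a median of 1.22. Of the 84 tested in all 3 lines, 50 were called higher in all of them, and 18 were called higher in neither of the other lines. The 18 missed the threshold there, which does not show that they did not respond. The share of all genes with either pattern was not computed. One higher gene was called lower in M1 and one in M2.

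A smaller share of the lower genes was called in the other lines, though above the share over all genes. Of the 35 tested in M1, 9 were called lower (25.7%, against 2.89% of all genes tested in M1) and 3 were called higher. The 9 were 1.80% of the 500 lower M1 genes tested in both lines, and the 35 had a median log2 difference of -0.60. Of the 36 tested in M2, 6 were called lower (16.7%, against 0.885% of all genes tested in M2) and 2 were called higher. The 6 were 5.00% of 120 such M2 genes, and the 36 had a median of -0.21. Of the 33 tested in all lines, 5 were called lower in all of them, and 23 were called lower in neither M1 nor M2. For the 23 too, a missed threshold does not show a lack of response.

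These shared counts moved with the scaling. When the calls of each line were taken after median-of-ratios scaling, 97 higher and 21 lower genes were shared with M1, and 92 and 27 with M2. With all libraries but SB replicate 3 of MDA-MB-231, 68 higher and 7 lower genes were shared with M1, and 57 and 5 with M2. The shared higher genes fell to 38 in M1 and 33 in M2 without SB replicate 1 of MDA-MB-231, to 37 and 32 without its SB replicate 2, and to 40 and 34 without its TGF-β replicate 3.

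NONHSAG032124.2 responded in every line. It averaged 254 ± 21.6 TPM with TGF-β and 7.37 ± 1.11 TPM with SB in M1, and 221 ± 65.0 TPM with TGF-β and 15.6 ± 6.98 TPM with SB in M2 (SD, n = 3 each). Its log2 difference in MDA-MB-231 exceeded that of M2 by 1.98 (limma adjusted p = 0.00459), a call kept in 12 of 12 fits that left out one library, and that of M1 by 0.78 (limma adjusted p = 0.292). NONHSAG082069.1 had log2 differences of 4.10 in MDA-MB-231, 4.32 in M1 and 3.94 in M2, and no test between lines passed. NONHSAG032247.3 averaged 0.0236 TPM with TGF-β and 1.38 TPM with SB in M1, and 0.226 TPM with TGF-β and 3.30 TPM with SB in M2. It fell in both, by 1.68 and by 2.43 on the log2 scale (limma adjusted p = 0.0349 and 0.000303), from SB levels far under those of MDA-MB-231. NONHSAG082120.1 had log2 differences of -0.75 in M1 and -0.88 in M2 with limma adjusted p = 0.276 and 0.0719.

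The difference between the lines was tested for every gene. It passed for 743 of 22921 genes between MDA-MB-231 and M1 (3.24%) and for 579 of 20203 between MDA-MB-231 and M2 (2.87%). Among these, the MDA-MB-231 difference was more positive for 231 genes and more negative for 512 against M1. Against M2 these counts were 91 and 488. The higher and lower genes below were chosen from the same MDA-MB-231 8 h libraries, and that choice favours a larger difference in this line. Among the 111 higher genes, the TGF-β minus SB difference was larger in MDA-MB-231 than in M1 for 27 and smaller for 8, and it was larger than in M2 for 27 and smaller for 8. For 18 higher genes it was larger than in both, and 9 of those were too low in M1 and M2 to enter their own tests. Among the 42 lower genes without overlap, it was more negative in MDA-MB-231 than in both other lines for 10, of which 4 were too low in both. The count between MDA-MB-231 and M2 moved with single libraries: it was 922 without the M2 TGF-β replicate 1, 348 and 314 without the M2 TGF-β replicates 2 and 3, 356 without the M2 SB replicate 1, 326 without the MDA-MB-231 TGF-β replicate 2 and 330 without the MDA-MB-231 SB replicate 3.

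The tenth- and ninth-ranked higher genes responded strongly in every line, and only the tenth passed a test between lines. The tenth-ranked higher gene averaged 221 ± 15.6 TPM with TGF-β and 34.0 ± 1.22 TPM with SB in MDA-MB-231. In M1 it averaged 560 ± 28.2 TPM with TGF-β and 15.2 ± 0.74 TPM with SB, and in M2 464 ± 111 TPM with TGF-β and 16.6 ± 6.92 TPM with SB (SD, n = 3 each). Its log2 difference was smaller in MDA-MB-231 than in both other lines, and the limma test gave -2.47 against M1 (adjusted p = 5.06e-10) and -2.15 against M2 (adjusted p = 0.000242). The ninth-ranked higher gene averaged 775 ± 32.1 TPM with TGF-β and 113 ± 5.81 TPM with SB in M1, within 1 SD of its values in MDA-MB-231, and 465 ± 86.6 TPM with TGF-β and 66.0 ± 11.2 TPM with SB in M2, below both (SD, n = 3 each). Its log2 difference was 2.72 in MDA-MB-231, 2.77 in M1 and 2.80 in M2. The limma tests between lines did not pass (adjusted p = 0.945 against M1 and 0.925 against M2).

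Others went in opposite directions, and these were picked from their values. The 37th-ranked lower gene had 63.8 ± 5.85 TPM with TGF-β and 132 ± 36.6 TPM with SB in MDA-MB-231, but 133 ± 19.5 TPM with TGF-β and 26.8 ± 1.54 TPM with SB in M1, and 44.8 ± 11.5 TPM with TGF-β and 7.40 ± 3.02 TPM with SB in M2. The log2 difference in MDA-MB-231 was more negative by -3.30 against M1 and by -3.58 against M2 (limma adjusted p = 1.39e-12 and 4.21e-08). The 73rd-ranked higher gene had 1.43 TPM with TGF-β and 0.318 TPM with SB in MDA-MB-231, but 14.4 TPM with TGF-β and 32.2 TPM with SB in M1, and 6.46 TPM with TGF-β and 12.5 TPM with SB in M2. It was thus higher with TGF-β where its level was low and lower where its level was high, and the limma tests between lines gave 2.43 and 2.22 (adjusted p = 1.87e-06 and 0.00016).

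**Figure D5:**
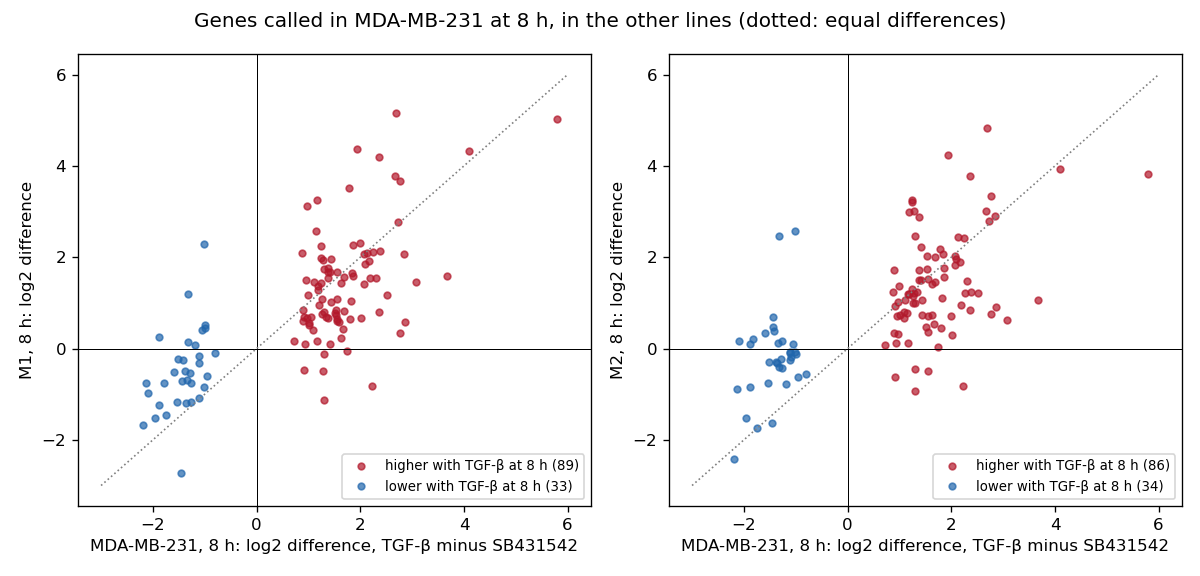
Log2 difference at 8 h, TGF-β minus SB431542, of the same 111 higher and 42 lower lncRNA genes in MDA-MB-231 (horizontal) against the same difference in M1 and in M2 (vertical), for the genes tested in each line. The higher genes lie mostly above 0 in both lines, with medians of 1.36 and 1.22, and the lower genes lie on both sides of 0, mostly below it in M1, where the median of all 35 tested was -0.60, and with a median of -0.21 over the 36 tested in M2.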

How the data were processed

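Total RNA of 72 samples was sequenced, and the 24 MDA-MB-231 libraries were used for the main test. The authors deposited TPM values for 96411 genes with NONCODE identifiers; per the file headers each column is a sample. FastQC, cutadapt 2.10, HISAT2 2.2.0, StringTie 1.3.6 and GRCh38 are named in the submitters' processing notes. The annotation, the strand setting and any filters: not given in the sources used here. TPM was scaled over lncRNA genes alone, so abundant genes shift all others, and near-identical genes may share reads. None of the identifiers matched the reference tables (0), so names, positions and sequences were not used here, and the cell line label could not be checked against markers.

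Genes with 0.5 TPM in 3 of 24 libraries were tested as log2(TPM + 0.5) with limma 3.58.1 in R 4.3.3 (8 group means, moderated with a trend, two-sided, Benjamini-Hochberg adjusted p under 0.05). Between lines, 48 libraries were fitted. "Rescaled" means scaled by the median of ratios. The fitting code was tested on simulated data. The first 10 genes per direction were ranked by log2 difference among those called under both scalings without overlap of the groups, and the first 2 per direction are named. Alternatives were pseudocounts, filters, scalings, a fit of the compared groups alone, a replicate block and fits without each library. The members and lists were chosen with earlier results of these data known.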

Additional observations from a re-analysis of the deposited data

Results flagged for a closer look

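Results stand here because a test of the difference between times or lines passed. The ranked genes were chosen from the MDA-MB-231 8 h libraries, which also enter these tests, and that choice favours a larger difference there. The 8 h and 2 h contrasts differed for 9 genes. On the log2 scale the fourth- and ninth-ranked higher genes had a larger difference at 8 h, by 3.02 and 1.40, and NONHSAG032247.3, the first-ranked lower gene, a more negative one, by -1.79. These calls were kept in 3, 2 and 2 of 12 fits that left out one library.

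MDA-MB-231 and M1 differed for 743 genes. The MDA-MB-231 minus M1 values were 2.08, 2.29 and 2.42 for the third-, fifth- and eighth-ranked higher genes and -2.47 for the tenth. They were -2.15, -1.88 and -1.06 for the fifth-, seventh- and tenth-ranked lower genes. All but the last were called in 12 of 12 fits that left out one library, and the last in 8, losing its call without M1 SB replicate 3, M1 TGF-β replicate 3, MDA-MB-231 SB replicate 3 or MDA-MB-231 TGF-β replicate 2.

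MDA-MB-231 and M2 differed for 579 genes. The MDA-MB-231 minus M2 values were 1.98 for NONHSAG032124.2, 2.62, 2.45, 1.95 and 2.00 for the third-, fourth-, fifth- and eighth-ranked higher genes, and -2.15 for the tenth. They were -2.27, -1.99, -2.04, -1.57 and -1.93 for the third-, fifth-, seventh-, eighth- and tenth-ranked lower genes. The fifth higher gene kept its call in 6 of 12 such fits, the third lower gene in 5 and the fifth lower gene in 3, and the others in 12.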

How the results depend on the processing

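The 4 named genes kept their direction and call in all 16 other settings: NONHSAG032124.2 between 5.55 and 6.04, NONHSAG082069.1 between 3.56 and 4.88, NONHSAG032247.3 between -2.35 and -1.996 and NONHSAG082120.1 between -2.30 and -1.88 on the log2 scale. These 4 genes could be ranked only if called under median-of-ratios scaling, so their call in that setting was fixed by the choice. They were also chosen for the largest differences in the same libraries, which favours keeping their calls in the other settings. No result reversed. The counts at 8 h moved most with the scaling and with fewer libraries, and the cause was not tested. Median-of-ratios scaling gave 338 calls (211 higher, 127 lower), quantile normalization 352 (214 and 138), and the compared groups alone 85 (66 and 19, or 65 and 19 under both scalings). Leaving out one library gave 86 to 139 calls (61 to 117 higher, 21 to 37 lower; 61 to 114 and 21 to 36 under both scalings). Without SB replicate 3 and with median-of-ratios scaling, a setting chosen after seeing the data, there were 246 (157 and 89).

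The 8 h against 2 h count of 9 became 1 with pseudocount 0.1, 4 without a filter, 31 with median-of-ratios scaling, 3 with the 10 most abundant genes out of the total, 27 with quantile normalization, 0 with the compared groups alone, and 0 to 9 without one library. The 8 h against 24 h count of 0 became 6 without a filter, 1 at a mean of at least 1 TPM, 2 with either rescaling, and 0 to 2 without one library (2 without the TGF-β replicate 2 of 24 h, and 1 without the SB replicate 2 or 3 of 24 h). Between MDA-MB-231 and M1 the 743 became 1123, 1166 and 466 with median-of-ratios scaling, quantile normalization and the compared groups alone, and 521 to 680 without one library. Between MDA-MB-231 and M2 the 579 became 374 with pseudocount 0.1 and 374 at a mean of at least 1 TPM, 1071, 893 and 376 with those 3 settings, and 314 to 922 without one library. Genes shared with other times and lines also moved with quantile normalization, to 103 and 146 higher and 16 and 61 lower at 2 and 24 h, and to 100 and 87 higher and 26 and 29 lower in M1 and M2. With the compared groups alone, M1 shared 38 higher and 4 lower genes. With the 10 most abundant genes out of the total, M1 shared 15 lower genes, and without a filter 3 lower genes were shared with 2 h. Leaving out one library gave 37 to 68 higher and 6 to 9 lower genes shared with M1, and 32 to 59 and 5 to 6 with M2.

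Same-numbered TGF-β and SB libraries had correlations of -0.03, 0.01 and 0.06 in their deviations, against -0.06 to 0.05 for differently numbered ones. Replicate numbers thus showed no pairing in these values, which cannot settle whether same-numbered libraries shared a culture. With a replicate block 154 genes were called (108 higher, 46 lower). Depth was unknown, so low values carry an error of unknown size.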
